A study of Mus musculus with 20 samples.

Results

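Hearts of trained mice whose label gives a knockout of PGC-1α in cardiomyocytes were compared with those of trained wild-type mice, 5 against 5 of the 20 libraries of the series. The comparison was made over every gene with a mean of at least 0.5 FPKM over the 20 libraries, which was 13723 of the 25851 genes in the deposited table. All mice were male and 14 to 16 weeks old, and the trained animals had 6 weeks of access to a running wheel. The other 10 libraries came from sedentary mice of the same 2 genotypes. The trained groups differ, as labelled, in genotype alone, and neither the line that drives the deletion nor the deleted stretch of the gene is given in the sources used here. RNA was taken from 15 to 20 mg of heart, so each library holds cardiomyocytes together with every other cell of the piece. The FPKM are reads per kilobase of transcript, scaled to library sizes that followed median-ratio size factors and not total read depth. Such a factor is the median, over genes, of a library's level relative to the geometric mean of all libraries. All differences below are labelled knockout minus wild type on the log2(FPKM + 0.5) scale. They are given with the standard error and were tested with limma over all 13723 genes.

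PGC-1α, encoded by Ppargc1a, is a coactivator: it has no DNA-binding domain of its own and works through nuclear receptors such as the estrogen-related receptors and PPARα, and through NRF1. In heart muscle these factors drive the genes of the respiratory chain, of the tricarboxylic acid cycle and of fatty acid oxidation, from which the adult heart obtains most of its ATP. GDF15 is a cytokine of the TGF-β superfamily that stressed cells secrete, induced through ATF4 and through p53, and the series title names its suppression as the question.

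Recovered depth was 14162000 to 22805000 reads in trained wild-type and 18312000 to 30431000 reads in trained labelled knockout hearts. Reads from the mitochondrial genome made up 15.6 to 20.3% in the first group and 11.4 to 17.9% in the second, and the FPKM of a library summed to 410640 to 507890 and 331880 to 398370. These sums do not overlap, and rescaling to a common sum (TPM) moved the median difference of all genes from -0.005 to 0.24. Myl7, the atrial myosin light chain, exceeded 1000 FPKM in wild-type replicates 4 and 5 and in labelled knockout replicates 2 and 5, and the other 6 libraries were below that level. These 4 libraries are called high-Myl7 here, and results that rest on them are given within the 3 against 3 low-Myl7 and the 2 against 2 high-Myl7 hearts. The defining cardiomyocyte markers were the most abundant of all marker lists in every trained heart, with summed levels of 19120.0 to 25050.0 FPKM in wild-type and 15600.0 to 18080.0 FPKM in labelled knockout hearts.

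Ppargc1a itself (chromosome 5, minus strand, 51454250 to 51567726 in GRCm38, ENSMUSG00000029167), the gene named by the label, was measured first. Trained wild-type replicates 1 to 5 held 21.9, 10.4, 17.4, 11.2 and 17.98 FPKM, and trained labelled knockout replicates 1 to 5 held 23.01, 26.9, 21.2, 18.7 and 22.95 FPKM. The groups overlapped, and the labelled knockout hearts were on the whole higher, not lower. The difference was 0.55 ± 0.19, adjusted p = 0.0387 in the fit over all genes (exact two-sided permutation p = 0.0238). It did not pass without the 4 high-Myl7 libraries (0.39, adjusted p = 0.288), without wild-type replicate 2 (0.42, adjusted p = 0.118) or 4 (0.44, adjusted p = 0.109), or without labelled knockout replicate 1, 2, 3 or 5. The direction goes against a loss of the transcript. A level summed over the whole gene does not show a deleted exon, so every direction below is drawn between labels. Ppargc1b, the related coactivator PGC-1β, had 5.03 ± 2.18 and 6.44 ± 1.65 FPKM (0.38 ± 0.22, adjusted p = 0.235).

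Gdf15 (ENSMUSG00000038508, minus strand of chromosome 8, 70629393 to 70632456) was higher in every trained heart with the knockout label. Its levels were 1.78, 1.15, 3.17, 1.64 and 0.824 FPKM in wild-type replicates 1 to 5 and 36.03, 15.6, 44.9, 48.2 and 12.2 FPKM in labelled knockout replicates 1 to 5. The groups did not overlap, and within the labelled knockout the high-Myl7 replicates 2 and 5 were the lowest. The difference was 3.74 ± 0.35, adjusted p = 2.47e-07, with an exact two-sided permutation p of 0.00794, the smallest that 252 splits allow. It was 4.17 between the low-Myl7 and 3.08 between the high-Myl7 hearts.

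**Figure D1:**
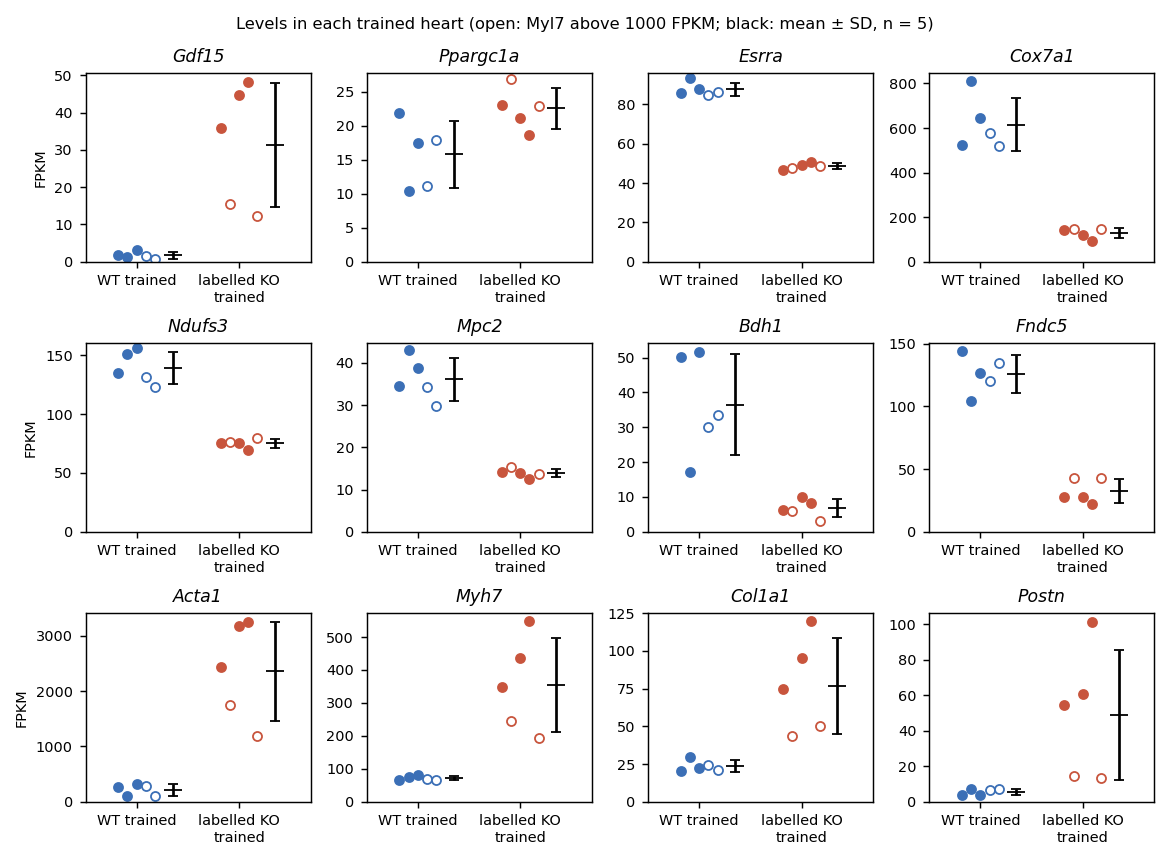
FPKM of 12 genes in each trained heart, wild type left and labelled knockout right, with open circles for libraries with Myl7 above 1000 FPKM and black bars for mean ± SD (n = 5). Ppargc1a overlaps between groups, Gdf15, Acta1, Myh7, Col1a1 and Postn lie higher and Esrra, Cox7a1, Ndufs3, Mpc2, Bdh1 and Fndc5 lower in all 5 labelled knockout hearts.

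Across all genes, 1713 were higher (12.5% of those tested) and 2112 lower (15.4%) in trained labelled knockout than in trained wild-type hearts at an adjusted p below 0.05. Together these were 27.9% of genes. With a difference of at least 2-fold as well, 267 were higher (1.95%) and 175 lower (1.28%). The 5 libraries of each group did not overlap for 1108 genes above (8.07%) and 1521 below (11.1%). After rescaling to TPM 5128 of the 13723 genes were higher and 789 lower, so counts of genes by direction depend on the scale. Counts on the TPM scale below are to be read beside these. Medians of lists are to be read beside the all-gene median of their scale, -0.005 as deposited and 0.24 on the TPM scale. In pieces of bulk tissue, fewer cells of a type and less RNA per cell cannot be told apart.

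Nuclear genes of the respiratory chain were lower as a group. All 36 tested subunits of complex I fell, with a median difference of -0.81 against -0.005 over all genes, where 15.4% of genes fell. The 14 subunits of complexes II and III fell as well (median -0.74), as did 13 of 15 of complex IV (median -0.80) and 19 of 20 genes of ATP synthase and adenine nucleotide exchange (median -0.77). On the TPM scale these medians were -0.52, -0.45, -0.51 and -0.48, beside 0.24 for all genes. Summed over the complex I list, levels were 5819 to 8021 FPKM in wild-type and 3419 to 4139 FPKM in labelled knockout hearts, without overlap.

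Cox7a1 (ENSMUSG00000074218, plus strand of chromosome 7, 30184144 to 30186078), the heart and muscle isoform of a small complex IV subunit, had the largest difference among these genes. Wild-type replicates 1 to 5 had 525, 809.8, 647, 576 and 518 FPKM and labelled knockout replicates 1 to 5 had 144, 145, 121, 91.7 and 147 FPKM. Every labelled knockout heart was below every wild-type heart, with replicate 4 the lowest, and the difference was -2.24 ± 0.14, adjusted p = 3.34e-09. Cox6a2, another heart and muscle isoform, went from 2280.2 to 1022 FPKM in group means (-1.16 ± 0.12, adjusted p = 1.05e-06), and Cox5a went from 239.6 to 137 FPKM (-0.80 ± 0.068). The 2 complex IV genes that did not pass were Cox6a1 (-0.37 ± 0.15, adjusted p = 0.0758) and Cox8a (-0.30 ± 0.11, adjusted p = 0.0504), named here after their values were seen. Labelled knockout replicate 2 stood apart for Cox6a1, at 201 FPKM against 103 to 119 in the other 4. Without the high-Myl7 libraries all 15 complex IV genes fell, both of these included. Cox7a2, another subunit VIIa isoform, fell by 0.94 (adjusted p = 3.73e-07).

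Ndufs3, a core subunit of complex I, stood at 134, 151, 156, 132 and 123 FPKM in the wild-type and 75.1, 76.7, 75.2, 69.3 and 80.03 FPKM in the labelled knockout hearts, in replicate order. The groups were far apart relative to their spread (-0.88 ± 0.067, adjusted p = 2.82e-08). Ndufs8, which carries iron-sulfur clusters of complex I, differed by -1.03 ± 0.085, and Ndufb4, an accessory subunit, by -0.88 ± 0.076. In complexes II and III the first by p were Sdhb (-0.96 ± 0.085), the iron-sulfur subunit of succinate dehydrogenase, Uqcrc1 (-1.07 ± 0.092), a core protein, and Uqcrfs1 (-0.88 ± 0.067), the Rieske protein. In ATP synthase, differences were -1.13 ± 0.073 for Atp5g1, which encodes the membrane c subunit, -0.98 ± 0.10 for its paralog Atp5g3 and -0.81 ± 0.067 for the catalytic subunit Atp5b. Slc25a3, the mitochondrial phosphate carrier, differed by -0.76 ± 0.067.

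Of the 13 transcripts of the mitochondrial genome, 6 fell and none rose (median -0.52, and -0.23 on the TPM scale). mt-Cytb, cytochrome b of complex III, held 30105, 26624, 31334, 22674 and 23969 FPKM in wild-type and 22519, 19898, 17603, 13484 and 21068 FPKM in labelled knockout hearts. Each labelled knockout value was below the lowest wild-type value (-0.52 ± 0.13, adjusted p = 0.00581), though replicate 1 came close to it. mt-Nd4, a complex I subunit, differed by -0.56 ± 0.13, and mt-Co3, a complex IV subunit, by -1.19 ± 0.32 with overlapping groups. mt-Cytb did not pass when the 2 trained groups were fitted alone, and neither mt-Cytb nor mt-Nd4 passed with no filter on low values. The libraries were selected for poly-A tails, which these transcripts carry in short form.

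Promoters of 2 respiratory genes are shown because they hold the half-site AAGGTCA that estrogen-related receptors bind, within a list whose members fell together. The 250 bases before the annotated start are printed 5′ to 3′ on the gene's own strand, with the match in capitals, from RefSeq on GRCm38.p6. Ndufb4 lies at chr16:37654369-37654618 and Atp5g3 at chr2:73911327-73911576, both on the minus strand, and in Atp5g3 the match reads on the opposite strand as TGACCTT.
Ndufb4: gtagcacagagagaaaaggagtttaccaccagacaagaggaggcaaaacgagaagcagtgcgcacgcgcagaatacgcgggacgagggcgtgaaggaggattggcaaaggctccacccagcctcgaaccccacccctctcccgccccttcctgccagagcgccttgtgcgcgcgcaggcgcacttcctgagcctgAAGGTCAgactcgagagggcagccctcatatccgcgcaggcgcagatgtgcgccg
Atp5g3: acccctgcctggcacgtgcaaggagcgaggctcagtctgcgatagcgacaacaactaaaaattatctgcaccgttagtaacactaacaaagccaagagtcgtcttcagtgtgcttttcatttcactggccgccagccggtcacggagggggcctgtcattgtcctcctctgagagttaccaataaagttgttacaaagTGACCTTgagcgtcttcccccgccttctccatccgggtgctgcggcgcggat
The half-site was searched on both strands of 300-base windows, 250 bases before to 50 after each start. It was found in 4.72% of 32851 RefSeq promoters, in 3.97% of the 9701 tested genes that had one, and in 10 of 70 respiratory chain and ATP synthase genes with a promoter (14.3%). Of those 10, all but Atpif1 fell. In the fuel oxidation lists described next, whose members also fell, it was in 4 of 72 genes with a promoter (5.56%).
CCGGAAG, an ETS core, was in 27.1% of the same promoters and 19.7% of tested genes, and the NRF1 palindrome in 7.14% and 2.29%. In the fuel oxidation promoters these were 11.1% and 1.39%, below the tested genes. AAGGTCA also contains the half-site shared by PPAR and RXR dimers. A match describes these letters alone, since no binding was measured.

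Genes that feed the respiratory chain were lower in the labelled knockout as well. Of the 24 genes of pyruvate entry and the tricarboxylic acid cycle, 23 fell (median -0.77), and of 36 genes of fatty acid uptake and oxidation, 32 fell (median -0.74). All 24 genes of branched-chain amino acid and ketone oxidation fell (median -0.80). On the TPM scale the medians were -0.48, -0.47 and -0.52, beside 0.24 for all genes.

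Mpc2, a subunit of the mitochondrial pyruvate carrier, held 34.5, 43.1, 38.8, 34.3 and 29.8 FPKM in wild-type and 14.3, 15.2, 13.9, 12.5 and 13.6 FPKM in labelled knockout hearts. The labelled knockout values sat within a narrow band well below the lowest wild-type heart (-1.34 ± 0.080, adjusted p = 2.71e-09). Got1 of the malate-aspartate shuttle (-1.19 ± 0.090), Suclg1 of succinyl-CoA ligase (-1.10 ± 0.085) and Mdh2, mitochondrial malate dehydrogenase (-0.91 ± 0.071), were the next by p. In fatty acid oxidation, Acaa2, the last enzyme of the mitochondrial spiral, fell from 652 to 267 FPKM (-1.31 ± 0.15, adjusted p = 1.79e-06). Eci1, which moves double bonds (-1.11 ± 0.11), Echs1, the short-chain hydratase (-1.06 ± 0.078), and Acads, the short-chain dehydrogenase (-0.95 ± 0.091), fell as well. Cpt1b, the muscle carnitine palmitoyltransferase at the entry of the pathway, differed by -0.73 ± 0.15. The 4 members that did not pass were Cd36 (-0.25 ± 0.15), Cpt1a (0.18 ± 0.079), Ucp3 (-0.59 ± 0.25) and Pdk4 (0.60 ± 0.29).

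Bdh1, which turns β-hydroxybutyrate into acetoacetate, had the largest decrease in the list of branched-chain and ketone oxidation. Its values were 50.2, 17.02, 51.7, 30.1 and 33.4 FPKM in wild-type replicates 1 to 5 and 6.17, 5.99, 10.01, 8.29 and 3.10 FPKM in labelled knockout replicates 1 to 5. The groups did not overlap, wild-type replicate 2 was the lowest of its group, and the difference was -2.34 ± 0.45, adjusted p = 6.25e-04. Oxct1, the transferase that follows in ketone oxidation, differed by -0.58 ± 0.15 and did not pass on the TPM scale. For branched-chain amino acids, Bcat2, the transaminase (-0.94 ± 0.077), Bckdhb of the branched-chain dehydrogenase (-1.35 ± 0.12) and Mccc2 of leucine breakdown (-0.98 ± 0.066) fell without overlap between groups.

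**Figure D2:**
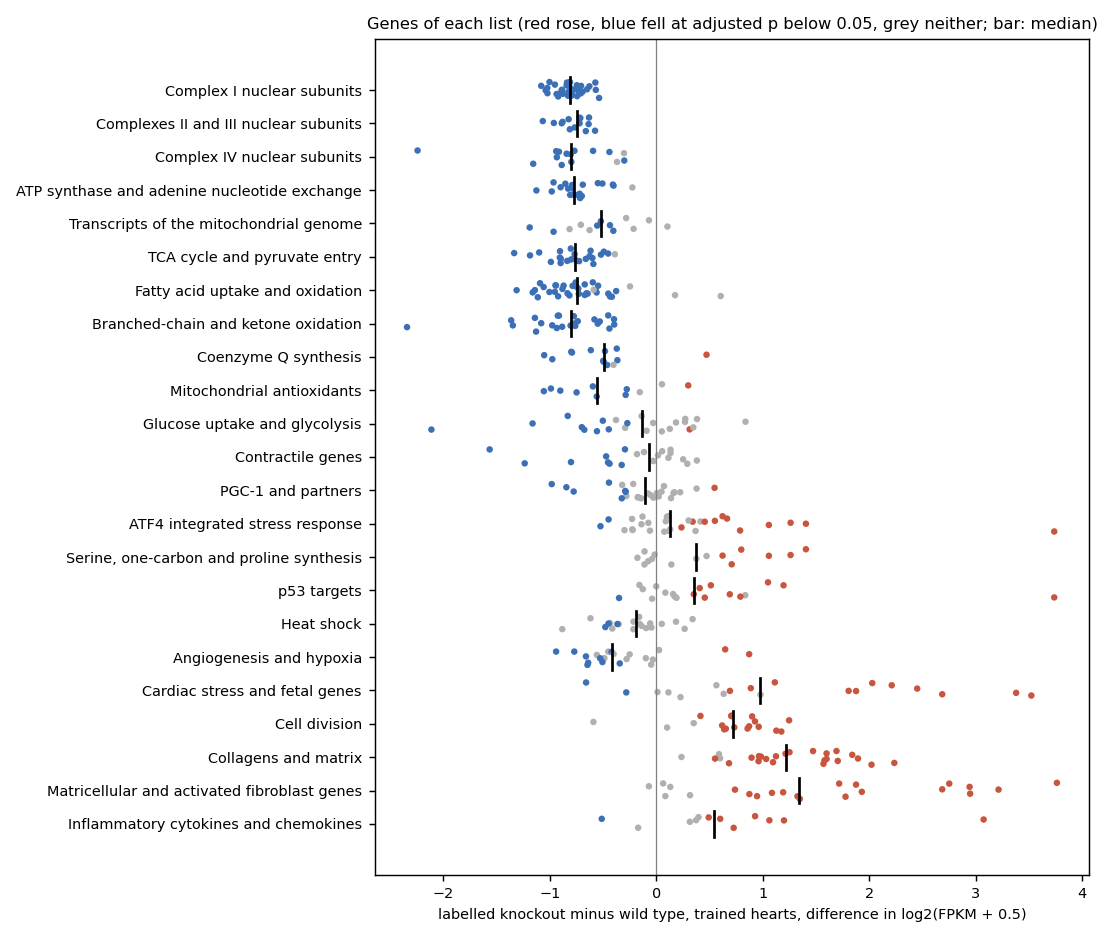
Difference in log2(FPKM + 0.5) between trained labelled knockout and trained wild-type hearts for each member (point) of 23 gene lists, red where it rose, blue where it fell and grey where it did not pass, with the list median as a black bar. Medians are -0.74 to -0.81 for the nuclear respiratory and fuel lists and 1.21 and 1.34 for collagens and matricellular genes.

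Most of the regulators themselves did not pass the test. Esrra, the estrogen-related receptor α and a target of its own product, held 85.8, 93.6, 87.9, 84.8 and 86.4 FPKM in wild-type and 46.6, 47.6, 48.97, 50.9 and 48.8 FPKM in labelled knockout hearts. Both groups were tight and well apart (-0.85 ± 0.050, adjusted p = 2.71e-09). Perm1, a muscle regulator induced by PGC-1α and ERRα, stood at 135, 77.5, 113, 81.4 and 86.6 and 61.02, 51.8, 62.2, 50.8 and 55.3 FPKM, again without overlap (-0.78 ± 0.13, adjusted p = 1.27e-04). Sirt3, the main mitochondrial deacetylase (-0.98 ± 0.075), Ppard (-0.33 ± 0.089) and Tfam, the packaging and transcription factor of mitochondrial DNA (-0.29 ± 0.082), were lower, of which Ppard and Tfam lost the call on the TPM scale. Esrrg, the γ receptor, had 4.65 ± 2.00 and 5.32 ± 1.31 FPKM and did not pass (0.22 ± 0.23). In the list of 26 coactivators, receptors and partners, 7 fell, Ppargc1a rose and 18 did not pass. Its median was -0.11 beside -0.005 for all genes. On the TPM scale 3 fell and 6 rose, with a median of 0.15 beside 0.24 for all genes.

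Other mitochondrial lists had more genes lower than higher, with medians below the all-gene median on both scales. As deposited 15.4% of all genes fell and their median was -0.005, beside a median of 0.24 on the TPM scale. In coenzyme Q synthesis 11 of 13 genes fell (median -0.50), among them the hydroxylase Coq7 (-1.05 ± 0.10) and its partner Coq9 (-0.98 ± 0.068). Of 11 antioxidant genes 8 fell (median -0.56), among them Sod2, the matrix superoxide dismutase, from 53.3 to 25.2 FPKM (-1.06 ± 0.081, adjusted p = 2.82e-08), and Prdx5 (-0.90 ± 0.094). Of 20 genes of mitochondrial shape and turnover 11 fell (median -0.41). These included Mtfp1, an inner membrane protein that promotes fission, from 77.4 to 26.4 FPKM (-1.52 ± 0.094, adjusted p = 3.34e-09), the cristae protein Chchd10 (-1.06 ± 0.082) and the mitophagy kinase Pink1 (-0.92 ± 0.085). Of 15 chaperones and proteases 10 fell (median -0.38), among them the protease Clpp (-0.81 ± 0.10) and Dele1, which relays mitochondrial stress to the cytosol (-0.78 ± 0.090). Hspd1 (-0.45 ± 0.086) and Hspe1 (-0.48 ± 0.084), the chaperonin pair, fell as deposited and did not pass on the TPM scale. On that scale 7 fell and 1 rose in coenzyme Q synthesis (median -0.21), 5 fell and 2 rose in antioxidants (median -0.27), 9 fell and 5 rose in shape and turnover (median -0.13) and 2 fell and 1 rose in chaperones and proteases (median -0.094).

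Transfer of energy and glucose use were mixed. Ckmt2, the mitochondrial creatine kinase of striated muscle, went from 1221 to 457 FPKM (-1.40 ± 0.11, adjusted p = 4.61e-08), and its cytosolic partner Ckm (-0.70 ± 0.10) and the adenylate kinase Ak1 (-0.85 ± 0.070) fell as well, while 2 of the 9 genes of that list rose. Of 23 genes of glucose uptake and glycolysis 9 fell and 1, Ldha, rose (0.31 ± 0.10). The list's median was -0.14 as deposited, beside -0.005 for all genes, and 0.15 on the TPM scale, beside 0.24 for all genes. Its sign thus changed with the scaling, while it stayed below the all-gene median on both scales. On the TPM scale 6 fell and 7 rose, beside 789 and 5128 of all 13723 genes. Without the high-Myl7 libraries 10 fell and 5 rose, Ldha not among them. Members that fell were Ldhb, the heart isoform of lactate dehydrogenase, from 936 to 416 FPKM (-1.16 ± 0.084, adjusted p = 1.72e-08), the muscle phosphofructokinase Pfkm (-0.83 ± 0.082), the insulin-regulated glucose transporter Slc2a4 (-0.70 ± 0.10) and Pfkfb1, a regulator of phosphofructokinase (-2.11 ± 0.27).

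Genes of the stressed and fetal heart were higher. Of 19 tested, 11 rose and 2 fell (median 0.98), beside 12.5% and 15.4% of all genes. The median was 1.34 between low-Myl7 and 0.51 between high-Myl7 hearts. Acta1 (ENSMUSG00000031972, minus strand of chromosome 8, 123891769 to 123894751), the skeletal α-actin of the fetal heart, held 269.7, 97.4, 327, 276 and 109 FPKM in wild-type and 2432, 1752, 3181, 3244 and 1186 FPKM in labelled knockout hearts. Each labelled knockout heart was several times above the highest wild-type heart (3.52 ± 0.47, adjusted p = 1.22e-05). Myh7, the β-myosin heavy chain that the adult mouse ventricle replaces with Myh6, stood at 64.7, 76.3, 80.6, 69.1 and 66.3 and 349, 246, 436, 548 and 193 FPKM. Wild-type hearts hardly varied, and all labelled knockout hearts lay above them, lowest in the high-Myl7 replicates 2 and 5 (2.21 ± 0.24, adjusted p = 1.01e-06). Ankrd1, a titin-associated protein induced by stretch, had 450.4, 227, 494, 678 and 750.5 FPKM against 2944, 1881, 2978, 4052 and 1872 FPKM, without overlap (2.45 ± 0.33, adjusted p = 1.35e-05). Acta2, smooth muscle actin, also marks fetal and smooth muscle cells and went from 142 to 482 FPKM (1.81 ± 0.24, adjusted p = 1.51e-05).

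Both natriuretic peptides passed the test, and Nppa varied with Myl7 as well. Nppb (BNP) had 268, 44.1, 210.0, 243 and 390.4 FPKM in wild-type and 734, 578, 1042, 1273 and 479 FPKM in labelled knockout hearts and did not overlap (2.03 ± 0.45, adjusted p = 0.00208). Nppa (ANP), which atria make at high level, held 39.9, 10.1, 69.7, 2806 and 4205 FPKM in wild-type and 1472, 2734, 1562, 2702 and 2528 FPKM in labelled knockout hearts. In the wild type the high-Myl7 replicates 4 and 5 were above every labelled knockout heart, and the other 3 were far below all of them. The pooled difference of 3.38 ± 1.16 (adjusted p = 0.0354) was 5.89 between low-Myl7 and -0.39 between high-Myl7 hearts, and it did not pass in several fits that left out 1 library. The summed atrial markers, Nppa among them, ranged over 47.8 to 9578 FPKM in wild-type and 1499 to 5740.0 FPKM in labelled knockout hearts. This sum is therefore not independent of Nppa. The mean log2 level of the atrial list, with the trained wild-type mean at 0, was -1.49, -1.67 and -1.58 in labelled knockout replicates 1, 3 and 4. In the high-Myl7 replicates 2 and 5 it was 3.13 and 2.93. The part of atrial tissue in the Nppa values was not tested beyond the split by Myl7. Summed skeletal muscle markers, Acta1 among them, were 472 to 869 FPKM in wild-type and 1484 to 3509 FPKM in labelled knockout hearts, with 2 of 5 tested markers up (Acta1, Mylpf) and 1 down (Ckm). Summed pericyte and smooth muscle markers, Acta2 among them, were 319.8 to 390.3 FPKM in wild-type and 637 to 734 FPKM in labelled knockout hearts, with 2 of 9 up (Acta2, Cspg4) and 1 down (Kcnj8). Neither sum overlapped between groups, but each includes a stress gene named above that itself rose. The sums therefore do not show a rise of the other markers. The part of skeletal and smooth muscle cells in the stress genes was not tested. Fhl1, a muscle LIM protein of hypertrophy, rose by 0.89 ± 0.12.

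**Figure D3:**
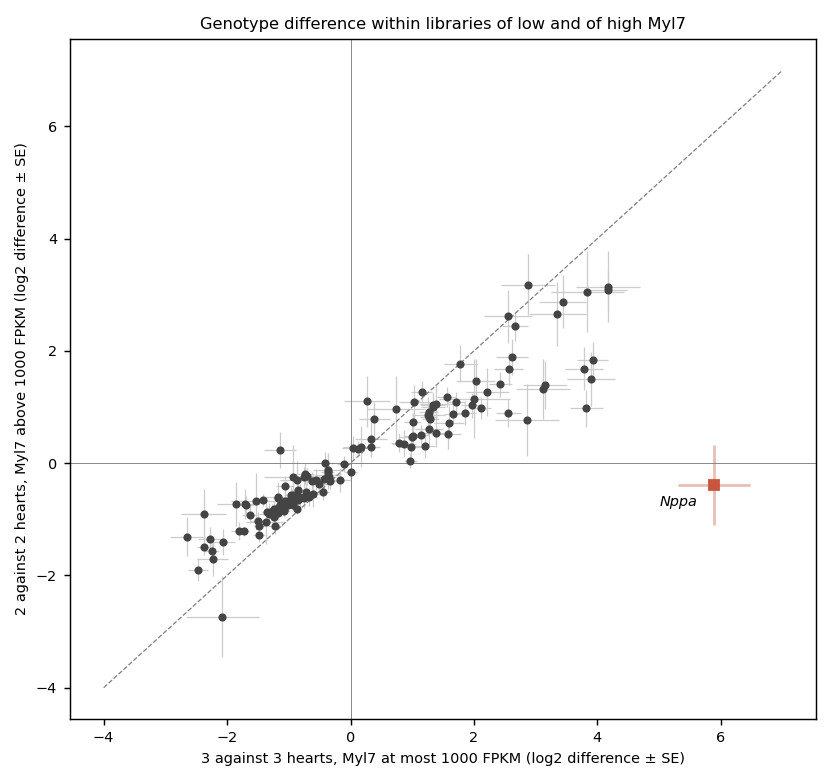
Difference between labelled knockout and wild type (log2 ± SE) within the 3 against 3 hearts with Myl7 at most 1000 FPKM (x axis) and within the 2 against 2 above it (y axis), 1 point per named gene, with the line of equality dashed. Nppa (square) is at 5.89 and -0.39, and 140 of 143 named genes keep their sign, all but Nppa, Atf4 and Ucp3. Genes whose trained groups do not overlap keep it by construction.

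Several abundant adult contractile genes fell. Tnni3 (ENSMUSG00000035458, minus strand of chromosome 7, 4518305 to 4524229), cardiac troponin I, held 1916, 2639, 2297, 2019.8 and 2011 FPKM in wild-type and 686, 823, 701, 572 and 914 FPKM in labelled knockout hearts. The groups were separated by a wide gap (-1.57 ± 0.12, adjusted p = 3.08e-08). Tcap, the titin cap, had 1804, 3174, 2104, 2286 and 2177 and 816, 1059, 862, 999.9 and 1106 FPKM (-1.24 ± 0.25, adjusted p = 7.84e-04), where wild-type replicate 2 was the highest. Myl2, the ventricular light chain, differed by -0.80 ± 0.15 and Myh6, the adult α-myosin heavy chain, by -0.45 ± 0.12, the latter not past the threshold on the TPM scale. In all, 8 of 20 contractile genes fell and none rose, with a median of -0.073 beside -0.005 for all genes. On the TPM scale 3 fell and 7 rose, with a median of 0.21 beside 0.24 for all genes. Of the cardiomyocyte markers 6 of 10 fell (median -0.37, or -0.083 on the TPM scale), and the part of cell content in the lists above was not tested.

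In calcium handling 2 of 20 genes rose and 4 fell, shares near the 12.5% and 15.4% of all genes. On the TPM scale 5 rose and 2 fell, beside 5128 and 789 of all 13723 genes. Hrc, the histidine-rich calcium-binding protein of the sarcoplasmic reticulum, went from 357 to 144 FPKM (-1.31 ± 0.11, adjusted p = 1.09e-07), and Pln, the inhibitor of its calcium pump, from 529 to 371 FPKM (-0.51 ± 0.11). The pump Atp2a2 (-0.30 ± 0.16) and the release channel Ryr2 (-0.26 ± 0.18) did not pass. Of 17 repolarising potassium channel genes 5 fell, among them Kcnip2 of the transient outward current (-0.50 ± 0.10) and the modifier Kcnv2 (-1.32 ± 0.20). On the TPM scale 1 fell and 2 rose, and Kcnip2 did not pass. As deposited 1 gene of the list rose, Kcne1, the subunit that slows the KCNQ1 channel. It held 0.948, 0.529, 0.728, 0.765 and 0.351 FPKM in wild-type and 6.86, 4.10, 8.10, 6.97 and 6.37 FPKM in labelled knockout hearts, without overlap (2.58 ± 0.18, adjusted p = 9.03e-09). Clcn1, the chloride channel of skeletal muscle, went from 2.64 to 0.312 FPKM (-2.02 ± 0.26).

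Other genes with large differences came from several functions. Fndc5, the precursor of irisin, held 144, 104, 126, 120.2 and 135 FPKM in wild-type and 28.1, 42.7, 27.4, 22.3 and 42.97 FPKM in labelled knockout hearts. The highest labelled knockout hearts, the high-Myl7 replicates 2 and 5, were still far below the lowest wild-type heart (-1.97 ± 0.14, adjusted p = 1.72e-08). Il15, a cytokine that muscle secretes, went from 15.4 to 4.12 FPKM (-1.80 ± 0.17), and Rpl3l, the striated-muscle form of a ribosomal protein, from 149 to 38.5 FPKM (-1.91 ± 0.18). Gstk1, a glutathione transferase of mitochondria and peroxisomes, went from 49.1 to 12.3 FPKM (-2.03 ± 0.17) and Lgals4, a galectin, from 46.4 to 12.96 FPKM (-1.79 ± 0.32). Aqp8, a water and peroxide channel, rose from 1.45 to 13.4 FPKM (3.00 ± 0.35, adjusted p = 3.24e-06), and Vgll2, a TEAD cofactor of muscle, from 0.288 to 4.25 FPKM (2.57 ± 0.29, adjusted p = 2.27e-06). Krt18 (2.40 ± 0.39, adjusted p = 9.88e-05) and Krt8 (1.66 ± 0.44, adjusted p = 0.00812), a pair of simple epithelial keratins, rose at low levels, Krt8 with overlapping groups.

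Stress responses linked to Gdf15 moved in part. Of 30 genes of the ATF4 response, Gdf15 itself included, 11 rose and 2 fell (median 0.12). Of 15 genes of serine, one-carbon and proline synthesis, which share members with that list, 6 rose (median 0.37). Across all genes 12.5% rose. Psat1, of serine synthesis, held 0.857, 1.13, 0.55, 1.21 and 1.43 FPKM in wild-type and 3.68, 3.81, 3.23, 3.30 and 3.41 FPKM in labelled knockout hearts. All 5 labelled knockout hearts lay close together above the wild type (1.40 ± 0.13, adjusted p = 2.65e-07). Mthfd2 of mitochondrial folate metabolism went from 1.44 to 4.15 FPKM (1.26 ± 0.20, adjusted p = 8.12e-05), Phgdh, at the start of serine synthesis, from 1.02 to 2.70 FPKM (1.06 ± 0.25), and Aldh18a1 of proline synthesis from 3.08 to 5.04 FPKM (0.62 ± 0.12). Atf4 itself (-0.060 ± 0.083) and Ddit3, the factor CHOP (-0.22 ± 0.14), did not pass. Fgf21, an ATF4 target, was too low to be tested, at means of 0.0441 and 0.0951 FPKM.

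Promoters of 2 of these genes are printed because they hold TGATGNAAN, the amino acid response element that ATF4 binds with C/EBP partners. The same 250 bases before the start are given, with the match in capitals, on the minus strand at chr6:7693210-7693459 for Asns and chr11:120643749-120643998 for Pycr1 (RefSeq, GRCm38.p6).
Asns: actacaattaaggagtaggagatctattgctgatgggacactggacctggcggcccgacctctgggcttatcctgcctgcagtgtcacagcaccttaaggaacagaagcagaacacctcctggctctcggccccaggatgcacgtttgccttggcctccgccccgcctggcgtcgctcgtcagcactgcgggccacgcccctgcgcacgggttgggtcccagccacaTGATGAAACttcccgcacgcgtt
Pycr1: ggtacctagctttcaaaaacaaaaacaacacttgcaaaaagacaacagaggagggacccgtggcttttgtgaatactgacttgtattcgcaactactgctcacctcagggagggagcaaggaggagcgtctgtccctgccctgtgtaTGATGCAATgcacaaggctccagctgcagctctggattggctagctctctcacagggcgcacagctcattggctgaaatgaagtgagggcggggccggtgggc
Searched on both strands, the element was in 3.95% of all promoters, in 2.75% of tested genes and in 9 of 33 genes of both lists with a promoter (27.3%). None of the 4 letter strings searched contains another. Asns, asparagine synthetase (0.79 ± 0.17, adjusted p = 0.00146), Pycr1 of proline synthesis (0.80 ± 0.13, adjusted p = 1.44e-04), the stress protein Nupr1 (0.66 ± 0.19, adjusted p = 0.0143) and the amino acid exchanger Slc1a4 (0.71 ± 0.16, adjusted p = 0.00216) rose among the 9. The other 5 did not pass, so a match went with both outcomes.

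Among 19 p53 targets, Gdf15 included, 9 rose and 1 fell (median 0.35). Phlda3, an inhibitor of AKT signalling, went from 14.7 to 30.1 FPKM (1.05 ± 0.20, adjusted p = 4.73e-04), and Ckap2, which binds microtubules in mitosis, from 0.305 to 1.34 FPKM (1.19 ± 0.15), while Cdkn1a, the p21 inhibitor, did not pass (0.83 ± 0.37). Of 20 genes of the endoplasmic reticulum response 3 rose (median 0.11), near the 12.5% of all genes, with 12 on the TPM scale and 1 without the high-Myl7 libraries. Of 20 heat shock genes 3 fell and none rose as deposited (median -0.19), beside 15.4% of all genes. On the TPM scale 0 fell and 3 rose (median 0.094, beside 0.24 for all genes). Of 21 immediate early genes 3 rose as deposited, also near the 12.5% of all genes. On the TPM scale 8 rose, beside 5128 of all 13723 genes. Myc, from 1.61 to 3.87 FPKM (1.10 ± 0.21), and Egr2 (1.15 ± 0.21) were among the 3. Of 19 clock genes none rose and 1 fell, both below the shares of all genes, and on the TPM scale 2 rose and 0 fell.

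Extracellular matrix genes rose together. Of 25 collagens and matrix genes 22 rose (median 1.21), and of 22 matricellular and activated fibroblast genes 17 rose (median 1.34), and none fell. Among all genes 12.5% rose and 15.4% fell. Summed matricellular levels were 222 to 541 FPKM in wild-type and 652 to 1252 FPKM in labelled knockout hearts. Medians were 1.47 and 1.64 between low-Myl7 hearts and 0.81 and 0.80 between high-Myl7 hearts.

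Col1a1, the main chain of fibrillar collagen I, held 20.2, 29.9, 22.3, 24.4 and 20.9 FPKM in wild-type and 74.8, 43.3, 95.5, 120.1 and 50.3 FPKM in labelled knockout hearts. Replicates 2 and 5 of the labelled knockout were lowest in their group and still above every wild-type heart (1.60 ± 0.21, adjusted p = 1.02e-05). Its partner Col1a2 differed by 1.47 ± 0.18, Col3a1 of the same fibrils by 2.02 ± 0.31, Col14a1, which binds to them, by 1.89 ± 0.24 and Lum, a small proteoglycan, by 1.12 ± 0.14. Fbn1, the fibrillin of microfibrils, rose with overlapping groups (1.84 ± 0.48, adjusted p = 0.00674).

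Postn, periostin of activated fibroblasts, stood at 3.52, 6.91, 3.62, 6.66 and 6.88 and 54.6, 14.3, 60.9, 101 and 13.3 FPKM in wild-type and labelled knockout hearts. The low-Myl7 labelled knockout hearts were several times above replicates 2 and 5 (2.68 ± 0.42, adjusted p = 7.90e-05). Cilp, a matrix protein that binds TGF-β, held 1.95, 6.77, 2.31, 1.87 and 0.983 FPKM in wild-type and 49.5, 14.4, 63.7, 91.4 and 17.8 FPKM in labelled knockout hearts. Wild-type replicate 2 stood above the other wild-type hearts, and no labelled knockout heart was as low (3.76 ± 0.52, adjusted p = 1.89e-05). Thbs4, a thrombospondin of stressed muscle and heart, went from 2.01 to 22.3 FPKM (3.21 ± 0.30, adjusted p = 2.71e-07) and Thbs1, which activates latent TGF-β, from 2.79 to 10.8 FPKM (1.78 ± 0.21). Ltbp2, a latent TGF-β binding protein (2.94 ± 0.40), the ligand Tgfb2 (1.35 ± 0.17), the protease Mmp2 (1.08 ± 0.13) and the protease inhibitor Timp1 (2.95 ± 0.36) rose without overlap. Members that did not pass included Thbs2 (0.13 ± 0.13) and Fap (-0.070 ± 0.10). Serpina3n, an acute-phase protease inhibitor, went from 7.83 to 83.4 FPKM (3.09 ± 0.36, adjusted p = 2.44e-06), and the follistatin-like Fstl1 from 19.9 to 68.8 FPKM (1.66 ± 0.22).

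Markers of fibroblasts moved with these genes. Of 10 fibroblast markers 8 rose (median 0.67), Col1a1, Col3a1 and Lum of the matrix list among them, and their summed level was 643 to 1156 FPKM in wild-type and 1113 to 1608 FPKM in labelled knockout hearts, with overlap. All 10 macrophage markers rose (median 1.10), beside 12.5% of all genes. Csf1r, the receptor that macrophages need to survive, held 9.79, 12.7, 10.2, 11.2 and 11.0 FPKM in wild-type and 25.02, 17.0, 28.5, 28.4 and 22.6 FPKM in labelled knockout hearts. The groups did not overlap (1.09 ± 0.13, adjusted p = 2.64e-06). Adgre1 (F4/80) went from 3.51 to 11.04 FPKM (1.47 ± 0.18) and the lysosomal marker Cd68 from 5.60 to 13.7 FPKM (1.21 ± 0.15). Summed macrophage markers were 185 to 334 FPKM in wild-type and 389 to 701 FPKM in labelled knockout hearts, again without overlap. Whether more cells or more RNA per cell lies behind these levels cannot be told apart, and the part of these cells in the matrix and chemokine values was not tested. Summed lymphocyte and neutrophil markers were low in both groups, at 0.987 to 2.61 FPKM in wild-type and 1.40 to 2.37 FPKM in labelled knockout hearts and at 1.28 to 5.06 FPKM in wild-type and 2.02 to 3.36 FPKM in labelled knockout hearts.

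Of 12 cytokine and chemokine genes that could be tested 7 rose and 1 fell (median 0.54), beside 12.5% and 15.4% of all genes. A further 10 on the list were too low to test. Ccl8, a chemokine that attracts monocytes, held 0.684, 3.88, 1.17, 0.837 and 1.04 FPKM in wild-type and 39.5, 7.66, 16.8, 12.8 and 9.54 FPKM in labelled knockout hearts. Wild-type replicate 2 and labelled knockout replicate 1 stood above the rest of their groups, and the groups did not overlap (3.07 ± 0.40, adjusted p = 9.78e-06). Ccl9 went from 3.16 to 7.90 FPKM (1.20 ± 0.17) and Cxcl16 from 3.60 to 5.61 FPKM (0.60 ± 0.13), the latter at 0.97 between low-Myl7 and 0.047 between high-Myl7 hearts. Igf1, the growth factor that heart macrophages and fibroblasts make, went from 1.39 to 2.80 FPKM (0.84 ± 0.17), and Igfbp7, a secreted binding protein, from 177 to 365 FPKM (1.00 ± 0.19).

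Genes of cell division rose at low levels. Of 18 tested 15 rose and none fell (median 0.72), beside 12.5% and 15.4% of all genes, and 6 were too low to test. Top2a, which untangles chromosomes in dividing cells, held 0.499, 0.236, 0.506, 0.231 and 0.177 FPKM in wild-type and 1.12, 0.605, 1.46, 1.40 and 0.735 FPKM in labelled knockout hearts. The groups did not overlap, and labelled knockout replicates 2 and 5 were nearest to the wild type (0.90 ± 0.15, adjusted p = 1.95e-04). Ccnd2, a cyclin of the early cycle, went from 11.6 to 27.98 FPKM (1.25 ± 0.21). Which cells divided cannot be read from these pieces, in which macrophage and fibroblast markers rose as well.

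More vessel genes fell than rose. Of 21 genes of angiogenesis and hypoxia 9 fell and 2 rose (median -0.42), beside 15.4% and 12.5% of all genes. On the TPM scale 4 fell and 2 rose, with a median of -0.14 beside 0.24 for all genes. Vegfb, which in the heart is tied to fatty acid uptake, held 222, 219, 229, 209.8 and 200.3 FPKM in wild-type and 121, 129, 125, 126 and 131 FPKM in labelled knockout hearts. Both groups were narrow and apart (-0.77 ± 0.064, adjusted p = 7.08e-08). Vegfa, the main angiogenic ligand, went from 108 to 68.8 FPKM with overlap (-0.65 ± 0.14), the endothelial receptor Tie1 from 36.5 to 23.1 FPKM (-0.64 ± 0.11), and Aqp1, the water channel of capillaries, from 206 to 106 FPKM (-0.94 ± 0.17). Of 10 endothelial markers 5 fell (median -0.43), with summed levels of 392 to 528 FPKM in wild-type and 296 to 359 FPKM in labelled knockout hearts. On the TPM scale 1 of these markers fell, and the part of endothelial content was not tested.

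**Figure D4:**
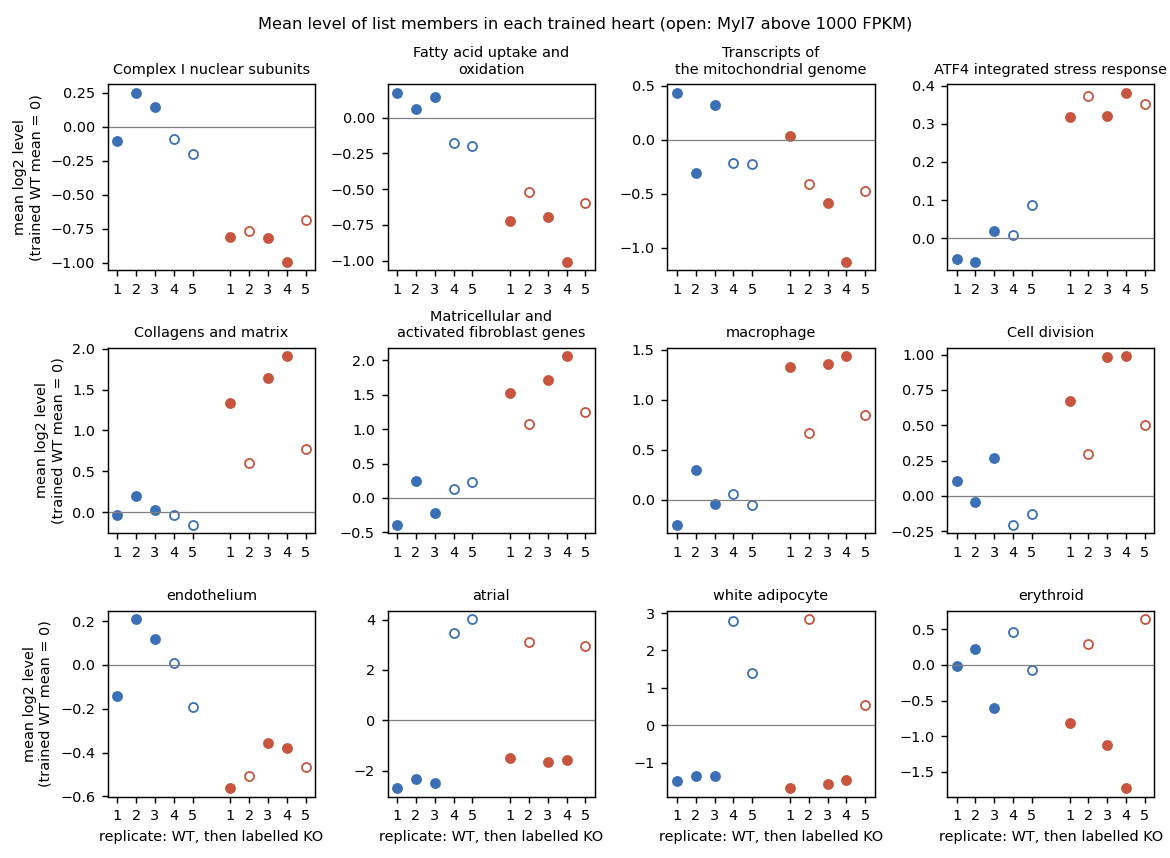
Mean log2 level of 12 gene or marker lists in each trained heart, with the trained wild-type mean set to 0 and open circles for Myl7 above 1000 FPKM. Complex I and fatty acid genes are lower, and matrix, macrophage and ATF4 genes higher, in all 5 labelled knockout hearts, while atrial and white adipocyte markers follow the Myl7 level.

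The same labels were compared in sedentary hearts, which share no library with the trained ones. There 955 genes were higher (6.96%) and 867 lower (6.32%). Of the 1713 genes that rose in trained hearts, 469 also rose in sedentary hearts (27.4% of the trained and 49.1% of the sedentary list), and of the 2112 that fell, 573 also fell (27.1% and 66.1%). In opposite directions were 4 and 5 genes. The difference between both comparisons, tested as an interaction, passed for 319 genes in the higher (2.32%) and 686 in the lower direction (5.00%), or 7.32% in both directions.

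Most respiratory genes differed from wild type by more in trained than in sedentary hearts. The interaction passed in the lower direction for 34 of 36 complex I genes, where the sedentary median was -0.21 with 13 lower. It passed for 13 of 24 tricarboxylic acid cycle genes, 8 of 36 fatty acid genes and 8 of 24 branched-chain and ketone genes, lists whose sedentary medians were -0.42, -0.40 and -0.57. The interaction passed on the TPM scale for 6 complex I, 4 tricarboxylic acid cycle, 0 fatty acid and 0 branched-chain and ketone genes in the lower direction, so most of these list counts do not hold there. With log2 Arntl as a covariate, 3 complex I genes were lower in sedentary hearts (13 as fitted), with a median of -0.25. For the tricarboxylic acid cycle it was 10 (22 as fitted, median -0.39) and for fatty acid genes 8 (19 as fitted, median -0.40). Interactions in the lower direction were also fewer with that covariate. They passed for 19 complex I, 9 tricarboxylic acid cycle, 1 fatty acid and 3 branched-chain and ketone genes. Ndufs3 differed by -0.22 in sedentary and -0.88 in trained hearts (interaction -0.66, adjusted p = 0.00462). Esrra differed by -0.47 and -0.85 (interaction -0.37, adjusted p = 0.00716). Bdh1, at -2.89 and -2.34, had no such difference past the threshold (interaction adjusted p = 0.603).

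Most matrix genes were higher in trained hearts, and few or none passed in sedentary hearts, depending on the fit. No collagen or matrix gene of 25 passed in sedentary hearts, where their median was 0.016, and the interaction passed for 19. Without the 4 high-Myl7 libraries, which are all trained, 3 of these genes rose and 1 fell in sedentary hearts, at the same median. Of 22 matricellular genes 3 rose in sedentary hearts and the interaction passed for 9. The interaction passed on the TPM scale for 17 and 9 genes of these lists. With log2 Arntl as a covariate it passed for 8 and 4. Col1a1 differed by 0.11 in sedentary and 1.60 in trained hearts (interaction adjusted p = 0.00825), and Cilp by 0.83 and 3.76 (interaction adjusted p = 0.0242). Prg4, lubricin, had one of the largest interactions, at 0.063 and 2.33 (interaction 2.26, adjusted p = 0.00462). In the other direction Depp1, a FoxO target, was at 1.33 in sedentary and -0.66 in trained hearts (interaction adjusted p = 0.0307), Nmb, the peptide neuromedin B, at 0.95 and -0.64 (interaction adjusted p = 0.0101), and Tmem82 at 0.067 and -1.40 (interaction adjusted p = 0.0294). All macrophage markers rose in trained hearts and 5 of 10 in sedentary hearts, and the interaction passed for 3.

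For Gdf15, Acta1 and Ankrd1 the interactions did not pass. The genotype difference in sedentary and trained hearts was 3.26 and 3.74 for Gdf15 (interaction adjusted p = 0.553), 2.85 and 3.52 for Acta1 (adjusted p = 0.525) and 1.74 and 2.45 for Ankrd1 (adjusted p = 0.33). Myh7 rose by more in trained hearts, at 0.74 and 2.21 (interaction 1.47, adjusted p = 0.0152). Interaction calls depend on the sedentary libraries: 5 of these, wild-type replicates 1 to 4 and labelled knockout replicate 1, had the clock gene Arntl above 2 FPKM. Without those 5, which leaves 1 sedentary wild-type heart, 1 interaction passed in all, with median interactions of -0.50 for complex I (against -0.63) and 0.94 for collagens (against 1.20). With log2 Arntl as a covariate 267 passed, against 1005 as fitted. Leaving out 1 library gave over 1.5 times more calls without sedentary wild-type replicate 5 (1607) or sedentary labelled knockout replicate 1 (1698). It gave over 1.5 times fewer without sedentary wild-type replicate 1 (504), 2 (492) or 3 (588) and without sedentary labelled knockout replicate 3 (487), 4 (639) or 5 (659). The same held without trained wild-type replicate 3 (564) and without trained labelled knockout replicate 1 (529), 3 (480) or 4 (504).

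**Figure D5:**
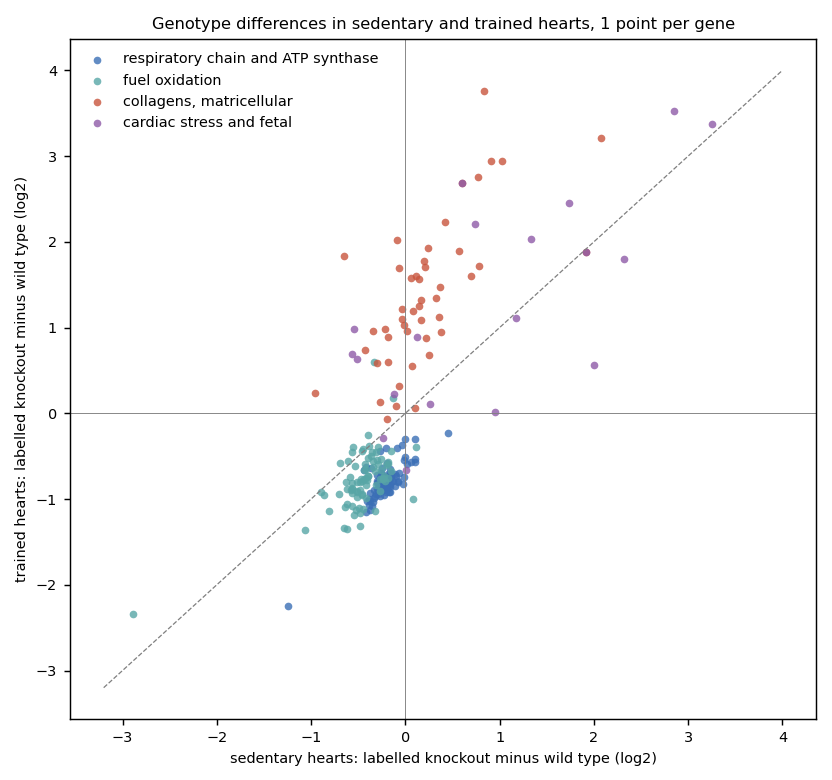
Difference between labelled knockout and wild type (log2) in sedentary (x axis) and trained hearts (y axis), 1 point per gene of 4 groups of lists, with the line of equality dashed. Most respiratory genes lie below the line, most collagens and matricellular genes above it, and cardiac stress genes on both sides.

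Between pieces of heart the genotype difference held its direction for most named genes, which was in part fixed by how they were named. A gene whose trained groups do not overlap must have the same sign in both kinds of piece. Within the 3 against 3 low-Myl7 hearts 1702 genes were higher (12.4%) and 2056 lower (15.0%), and within the 2 against 2 high-Myl7 hearts 247 (1.80%) and 550 (4.01%). The difference between the 2 kinds of piece passed for 2 genes in one direction (0.0146%) and 12 in the other (0.0874%). Complex I had medians of -0.97 and -0.57 in the low-Myl7 and the high-Myl7 hearts, and macrophage markers 1.37 and 0.73. Cox7a1 was at -2.47 and -1.90, Postn at 3.82 and 0.98, and Thbs1 at 1.78 and 1.77.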

How the data were processed

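Heart RNA of 20 mice was poly-A selected and sequenced with its strand kept, per the labels' protocols. The authors computed FPKM and deposited them in 1 table. The submitters' processing notes list HISAT2 2.0.5, featureCounts 1.5.0-p3, DESeq2 1.20.0 and the mm10 genome without their roles. FPKM times exon length (GENCODE M21, GRCm38) gave whole reads within 0.01 for 96.6% of genes, from which depth was taken. The implied library sizes followed median-ratio size factors within 0.997 to 1.003. All columns were assigned to a sample (0 without).

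log2(FPKM + 0.5) was fitted with limma 3.58.1 (R 4.3.3) over all 4 groups, 16 residual degrees of freedom, with a mean trend and Benjamini-Hochberg adjustment over 13723 genes. Tables and figures used Python 3.11.15, pandas 2.3.3, numpy 2.4.6 and matplotlib 3.10.9. The fit was tested on simulated data.

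Genes named were 15 set ones, the 15 largest differences per direction (at least 1 FPKM, no overlap), the 5 largest interactions per direction and up to 5 members per list by p, of which the text names a part (some are not reported here). Members that did not pass, Acaa2, Cpt1b, Oxct1, Ldha, Phgdh, Atp5g3, Nupr1, Slc1a4 and some cell markers were added after their values were seen. The members and the 34 pathway and 15 marker lists were chosen with earlier results of these data known.

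Alternatives were pseudocounts of 0.1 and 1, no filter, a mean of at least 2 FPKM, TPM and median-ratio scaling, the 2 trained groups alone, array weights, a replicate block and leaving out each library. Chosen after seeing the data were leaving out libraries with Myl7 above 1000 FPKM or Arntl above 2 FPKM, either gene as a covariate, and voom on the recovered reads, which called 1675 genes higher and 2035 lower.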

Additional observations from a re-analysis of the deposited data

Results flagged for a closer look

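Of the 143 genes the text names, 80 had a genotype difference that differed between trained and sedentary hearts at an adjusted p below 0.05 (limma interaction, log2, trained minus sedentary). They were named in part for large trained differences or large interactions, so their number says nothing beside the 7.32% of all tested genes. Among respiratory chain and ATP synthase genes it was -0.66 for Ndufs3, -0.62 for Ndufs8, -0.58 for Ndufb4, -0.64 for Sdhb, -0.59 for Uqcrfs1, -0.68 for Uqcrc1, -0.99 for Cox7a1, -0.74 for Cox6a2, -0.51 for Cox5a, -0.75 for Atp5g1, -0.65 for Atp5g3, -0.51 for Atp5b and -0.50 for Slc25a3. Among genes of fuel oxidation it was -0.68 for Mpc2, -0.64 for Got1, -0.61 for Suclg1, -0.64 for Mdh2, -0.84 for Acaa2, -0.44 for Echs1, -0.49 for Acads, -0.66 for Eci1, -0.46 for Mccc2, -0.48 for Bcat2 and -0.73 for Bckdhb. Among other mitochondrial genes and regulators the values were -0.37 for Esrra, -0.36 for Sirt3, -0.39 for Sod2, -0.66 for Prdx5, -0.72 for Mtfp1, -0.74 for Chchd10, -0.63 for Pink1, -0.50 for Coq9, -0.68 for Coq7, -0.57 for Clpp, -0.44 for Dele1 and -0.44 for Hspe1. For energy transfer and glucose use they were -0.64 for Ckmt2, -0.56 for Ckm, -0.41 for Ak1, -0.72 for Ldhb, -0.43 for Pfkm and -0.53 for Slc2a4. Contractile, ion handling and muscle genes had -0.96 for Tnni3, -1.21 for Tcap, -0.68 for Hrc, -0.65 for Kcnip2, 1.12 for Kcne1, 1.47 for Myh7, 0.77 for Fhl1, 1.81 for Vgll2 and -1.01 for Rpl3l. Matrix and fibroblast genes had 1.49 for Col1a1, 1.11 for Col1a2, 2.11 for Col3a1, 1.32 for Col14a1, 2.49 for Fbn1, 0.76 for Lum, 2.93 for Cilp, 2.08 for Postn, 2.03 for Ltbp2, 1.02 for Tgfb2, 0.91 for Mmp2, 1.58 for Thbs1, 1.93 for Timp1, 2.05 for Serpina3n, 1.44 for Fstl1 and 2.26 for Prg4. Immune, vessel and secreted genes had 1.22 for Adgre1, 0.63 for Csf1r, 2.54 for Ccl8, 0.66 for Cxcl16, 0.94 for Igf1, -0.88 for Il15, -0.54 for Vegfb and -1.04 for Aqp1. The remaining genes had -1.10 for Gstk1, 0.67 for Pycr1, -1.99 for Depp1, -1.58 for Nmb and -1.46 for Tmem82. Negative values mark genes that were lower, relative to wild type, in trained than in sedentary hearts. These calls rest on the sedentary libraries in the way described for the interaction count.

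In 15 of 286 groups of 5 trained libraries, 1 library stood apart from the other 4 by Dixon's test, which chance alone does in about 1 of 20 groups. In trained labelled knockout replicate 1 this was Ccl8 at 39.5 FPKM (others 7.66 to 16.8). In trained labelled knockout replicate 2 this was Cd68 at 9.41 FPKM (others 14.2 to 15.9), Cox6a1 at 201 FPKM (others 103 to 119) and Phgdh at 5.1 FPKM (others 1.61 to 2.54). In trained labelled knockout replicate 4 this was Sdhb at 180 FPKM (others 200.4 to 205). In trained labelled knockout replicate 5 this was Lum at 62.6 FPKM (others 49.3 to 52.6), Kcnip2 at 52.8 FPKM (others 43.3 to 44.4) and Slc2a4 at 95.6 FPKM (others 82.7 to 85.6). In trained wild-type replicate 2 this was Pfkfb1 at 10.5 FPKM (others 3.99 to 5.10), Lgals4 at 89.5 FPKM (others 30.1 to 43.1), Cilp at 6.77 FPKM (others 0.983 to 2.31), Ccl8 at 3.88 FPKM (others 0.684 to 1.17), Kcnv2 at 3.86 FPKM (others 2.26 to 2.70) and Ucp3 at 27.4 FPKM (others 9.99 to 14.1). In trained wild-type replicate 5 this was Egr2 at 1.37 FPKM (others 0.147 to 0.33).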

How the results depend on the processing

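Over 20 fits that each left out 1 library, 1355 to 1767 genes were higher and 1777 to 2168 lower in trained labelled knockout hearts, and the interaction passed for 480 to 1698. The difference was 3.53 to 4.02 for Gdf15 and 0.42 to 0.67 for Ppargc1a. TPM scaling gave 5128 higher, 789 lower and 406 interactions. No filter gave 629 interactions, array weights 5041, leaving out the 5 sedentary libraries with high Arntl 1 and an Arntl covariate 267; the cause was not tested. Ppargc1a did not pass with no filter (0.55, adjusted p = 0.0633), in the 2 trained groups alone (0.55, adjusted p = 0.0616) or without the high-Myl7 libraries (0.39, adjusted p = 0.288). With the replicate block, calls were 1925, 2295 and 1305, with 3.74 for Gdf15 (adjusted p = 4.27e-07) and 0.55 for Ppargc1a (adjusted p = 0.015). The numbers share no source in the labels, and same-numbered trained libraries had correlations of 0.355, -0.238, 0.419, -0.278 and 0.484, with 2 of 5 closest to their own number. Of 125 named genes that passed, Gdf15 and Ppargc1a not counted, 112 passed in every fit that tested them and 117 in every such fit but TPM. They were named in part for large differences or small p, so these counts do not describe all called genes. The mean of at least 2 FPKM left 115 of them to test and voom 117. Genes below the threshold changed sign with TPM (Atf4 0.23, Cd36 0.04, Ddit3 0.06, Fap 0.10, Ryr2 0.02), with array weights (Fap 0.02) and without the high-Myl7 libraries (Atf4 0.01).

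The number of animals limits these comparisons. The spread measured is that between single pieces of heart, and pieces differed in their levels of atrial markers. In simulated data, 48 of 100 genes changed by 0.5 and 86 of 100 changed by 1 on the log2 scale were called over 13723 genes, so not passing the test does not show equal levels. No other gene was changed there, whereas 27.9% of genes were called in the data. The adjustment therefore differs, and these shares do not measure the power of the trained comparison. The libraries of each group come from 5 mice, and the time of day of sampling is not given in the sources used here.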

Other observations

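Several further gene families were counted in trained labelled knockout hearts, chosen after their values were seen, beside the 12.5% of all genes that rose and the 15.4% that fell. On the TPM scale 5128 of all 13723 genes rose and 789 fell, with a median of 0.24. Of 77 mitochondrial ribosomal protein genes, which build the ribosome that translates the mitochondrial genome, 68 fell and none rose (median -0.44). On the TPM scale 33 fell (median -0.16). Of 78 cytosolic ribosomal protein genes 2 rose and 4 fell (median -0.047), fewer than the shares of all genes. On the TPM scale 25 rose, with a median of 0.24, the same as for all genes. All 8 assembly factors of complex I that were tested fell (median -0.52), and 18 of 38 mitochondrial solute carriers fell (median -0.21, or 0.034 on the TPM scale).

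All 6 tested genes of complement C1q (C1qa, C1qb, C1qc), C3 and the complement receptors C3ar1 and C5ar1 rose (median 1.06), as did 10 of 13 serpins (median 0.74), a family of protease inhibitors, and 5 of 11 cathepsins, proteases of the lysosome. The 4 tested genes of major histocompatibility class II, which present peptides to T cells, rose (median 0.73), and none passed without the 4 high-Myl7 libraries. Macrophage markers rose in the same hearts, and their part in these values was not tested.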
